A study of Mus musculus with 8 samples.

Results

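The epidermal growth factor (EGF) receptor is bound by a family of related growth factors, of which amphiregulin is the one best known from lymphocytes. The 9 genes described here were chosen by name from the 27179 rows of a count table. They are the ligand genes Areg (amphiregulin), Hbegf (heparin-binding EGF-like growth factor), Ereg (epiregulin), Btc (betacellulin), Tgfa (transforming growth factor alpha) and Epgn (epigen), and the protease genes Furin, Adam17 and Adam10. All 9 had a row, and 5 of them passed the filter on low counts that preceded the test. RNA was sequenced from CCR6+ group 3 innate lymphoid cells (ILC3s), lymphocytes of the gut wall that secrete interleukin 22, taken by sorting from the large intestine of C57BL/6 mice without treatment, with 1 library per mouse. The Zbtb46-deficient group (replicates 5 to 8, n = 4) carried a Cre recombinase transgene and Zbtb46f/f, with both alleles of the transcription factor gene Zbtb46 floxed. The Zbtb46-sufficient group (replicates 1 to 4, n = 4) was Zbtb46f/f, with the same floxed alleles and no Cre. The Cre driver is active in ILC3s and in T cell development, so the deletion is not limited to CCR6+ ILC3s. The sources used here do not give the ages and sexes of the mice. The question put to each gene is whether its transcript level differed between the genotypes.

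EGF receptor ligands are made as membrane-anchored precursors, and a protease must cut them free before they can reach other cells. ADAM17 is the main such protease for amphiregulin, HB-EGF, epiregulin, epigen and TGF alpha, and ADAM10 releases EGF and betacellulin. Furin removes the inhibitory prodomain of both ADAM proteases in the secretory pathway. In mucosal tissue amphiregulin from group 2 innate lymphoid cells and regulatory T cells is known to act on epithelial and stromal cells during repair.

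Areg, Ereg, Btc and Epgn lie together on mouse chromosome 5, and the 3 promoters of this cluster that RefSeq's table lists (build GRCm38.p6) are shown because only 1 of these 3 genes was transcribed at a measurable level here. Each is given 5′ to 3′ on the strand of its gene and ends at the base before the earliest annotated transcript start. Areg is on the plus strand at chr5:91139349-91139598, Epgn on the plus strand at chr5:91027267-91027463 and Btc on the minus strand at chr5:91402995-91403244. Capitals mark the cyclic AMP response element TGACGTCA and the TATA motif TATAAA.
Areg: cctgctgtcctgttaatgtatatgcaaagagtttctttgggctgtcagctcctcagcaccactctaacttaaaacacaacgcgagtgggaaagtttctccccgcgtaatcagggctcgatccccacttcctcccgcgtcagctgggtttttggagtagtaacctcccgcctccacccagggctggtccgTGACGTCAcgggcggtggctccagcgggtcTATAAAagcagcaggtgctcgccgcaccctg
Epgn: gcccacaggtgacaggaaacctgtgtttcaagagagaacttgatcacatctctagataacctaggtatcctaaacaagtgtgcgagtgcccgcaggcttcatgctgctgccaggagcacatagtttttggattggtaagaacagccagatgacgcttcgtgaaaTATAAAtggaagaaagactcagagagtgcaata
Btc: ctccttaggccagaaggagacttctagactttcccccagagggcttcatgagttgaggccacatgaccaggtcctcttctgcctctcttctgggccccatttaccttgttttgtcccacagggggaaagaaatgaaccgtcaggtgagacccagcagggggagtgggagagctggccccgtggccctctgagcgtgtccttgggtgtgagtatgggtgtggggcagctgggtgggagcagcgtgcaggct
The Areg element lies 61 to 54 bases before the start and its TATA motif 31 to 26 bases before it, while Epgn has a TATA motif 33 to 28 bases before its earliest start in GENCODE release M21, which is 86 to 81 bases before the start in RefSeq. For Areg and Btc the printed sequence ends at the RefSeq start. Motifs were searched on both strands in windows from 250 bases before to 50 bases after each RefSeq start. TGACGTCA was present in 1.79% of the 32851 windows of all genes, TATAAA in 13.6% and the AP-1 motif TGANTCA in 7.81%, each counted whether or not it shared bases with another. Of the 9 genes, 7 had a window (8 windows, since Furin has 2). Ereg and Hbegf had none, so they were not searched. Areg alone among the 7 had TGACGTCA, while TATAAA was in the windows of Areg, Epgn and 1 of Furin and TGANTCA in none. The Areg window had 21 CG dinucleotides, against 5 in each of the windows of Epgn and Btc and a median of 7 over all windows. Tgfa, another ligand gene with almost no counts here, had 24, more than Areg. Adam17 had 30, Adam10 32, and the 2 windows of Furin 7 and 51. A match is a string of letters and shows no binding.

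Library totals were 26967170 to 33760743 counts in deficient and 25328231 to 29175568 counts in sufficient ILC3s, and a count of 0 allows up to 0.0889 to 0.118 CPM (3 counts of the total, counting error only). Values are CPM, read counts scaled to library size, given as mean ± SD over n = 4 libraries. The deleted gene Zbtb46 was low in deficient libraries (chromosome 2, 181371009 to 181493262), with 0.125 to 4.82 CPM in deficient and 8.02 to 88.9 CPM in sufficient libraries. The groups did not overlap, and the log2 value fitted for Zbtb46 was -4.31 with an unadjusted p of 0.0124 and an adjusted p of 0.885 in edgeR, so it too missed the threshold. Its span overlaps those of several other genes, Lime1 and Zgpat among them. Of the 15 ILC3 markers all had counts and all passed the filter, and their summed level was 27086 to 32825 CPM in deficient and 28999 to 40757 CPM in sufficient libraries, with Il22 the largest part of it. Of these 15 genes 4 had an unadjusted p under 0.05 in edgeR, where 4.1% of all tested genes did, and none passed the threshold. Among the 4, Thy1 was higher in deficient ILC3s, with 335 ± 87.9 CPM against 207 ± 57.5 CPM in sufficient ILC3s. Nrp1 was lower, with 382 ± 183 CPM in deficient and 665 ± 103 CPM in sufficient ILC3s. The groups overlapped in both genes. Ltb (lymphotoxin beta) was lower in every deficient library, with 49.0 ± 9.81 CPM in deficient and 133 ± 63.5 CPM in sufficient ILC3s, as was the transcription factor gene Tcf7, with 133 ± 21.7 CPM in deficient and 210 ± 31.5 CPM in sufficient ILC3s. Deficient replicate 6 and sufficient replicate 1 stood apart from the rest on the first principal component, at 188 and -166, against -25.7 to 14.7 for the other 6 libraries. Markers of other cell types were present in libraries of both groups. Summed over 12 macrophage and neutrophil markers, deficient replicates 5 and 7 had 335 and 757 CPM, the other deficient libraries 12.9 and 21.2 CPM and the sufficient libraries 1.70 to 44.1 CPM. S100a8 and S100a9 made up most of these 2 high sums, with 238 and 94.1 CPM in deficient replicate 5 and 316 and 359 CPM in deficient replicate 7. Lyz2 of the same list had 0.114 CPM in deficient replicate 5 and 35.4 CPM in deficient replicate 7. The 10 stromal and endothelial markers summed to 338 to 1066 CPM in deficient libraries, highest in replicate 7, and to 200.2 to 1347 CPM in sufficient libraries, highest in replicate 1. Of this list Vim (vimentin), which lymphocytes also transcribe, was higher in every deficient library, with 350 ± 148 CPM in deficient and 125 ± 35.7 CPM in sufficient ILC3s, a log2 fold of 1.48 and an unadjusted p of 0.0019 in edgeR. Sufficient replicate 2 held 1397 CPM of the 11 epithelial markers, and every other library 28.6 CPM or less. The 8 natural killer and ILC1 markers summed to 443 to 1026 CPM in deficient and 107 to 630 CPM in sufficient libraries. The 10 dendritic cell markers include the deleted gene Zbtb46. Their sums were 564 to 1221 CPM in deficient and 583 to 859 CPM in sufficient libraries. Ccr7 was the largest part, with 655 ± 275 CPM in deficient and 487 ± 134 CPM in sufficient ILC3s. Flt3, Itgax, Clec9a and Ccl22 had at most 0.380 CPM in any library. Batf3, Xcr1 and Ccl17 were present in every library, and their groups overlapped. Batf3 averaged 74.6 CPM in deficient and 64.5 CPM in sufficient ILC3s, Xcr1 58.9 and 50.2 CPM, and Ccl17 57.8 and 34.1 CPM. Irf8 of the same list was also higher in every deficient library. It had 15.9 ± 7.53 CPM in deficient and 1.77 ± 2.68 CPM in sufficient ILC3s. Like Vim, Ltb and Tcf7, the genes Irf8, Ccr7, Batf3, Xcr1, Ccl17, Thy1 and Nrp1 were named after the values were seen. Over all tested genes the groups lay apart with deficient higher in 2.26% and with deficient lower in 2.1%. The 8 B and plasma cell markers summed to 21.3 to 94.9 CPM in deficient and 8.96 to 140 CPM in sufficient libraries.

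**Figure D1:**
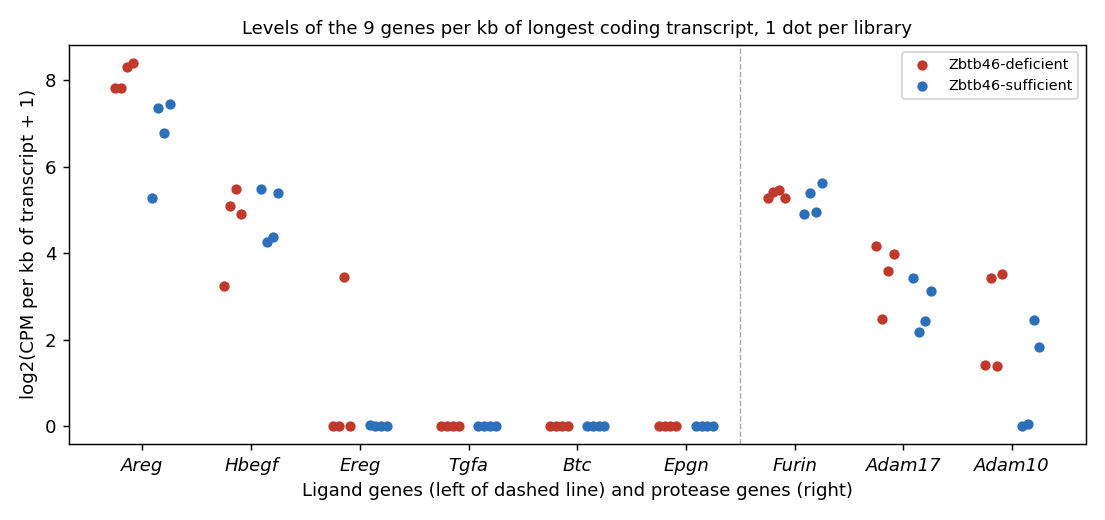
Level of each of the 9 genes per kb of its longest coding transcript, as log2(CPM per kb + 1), with 1 dot per library, deficient left of sufficient for each gene. Areg is the most abundant ligand transcript in 7 of the 8 libraries, Hbegf and Furin are present in all, and Btc and Epgn lie at 0 in all 8.

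Areg was the leading ligand transcript of these cells and had higher values in every Zbtb46-deficient library than in any sufficient one. It had 274, 272, 383 and 409 CPM in deficient replicates 5, 6, 7 and 8, against 45.8, 197, 131 and 211 CPM in sufficient replicates 1, 2, 3 and 4. The groups did not overlap, the lowest deficient value was close to the highest sufficient one, and sufficient replicate 1 was the lowest of the 8. The means were 335 ± 71.9 CPM in deficient and 146 ± 75.4 CPM in sufficient ILC3s, and Areg (Entrez ID 11839, chromosome 5, 91139599 to 91148432) stood above 91.5% of tested genes in level. The fitted log2 fold, deficient over sufficient, was 1.19 (standard error 0.430), with a 95% interval of 0.24 to 2.15, a fold of 2.29. In edgeR's quasi-likelihood test the unadjusted p was 0.0195 and the adjusted p over 8878 tested genes 0.983, so the difference did not pass the threshold. It ranked 174 by p among all tested genes. No gene passed in either direction at an adjusted p under 0.05 (0% of 8878), 4.1% had an unadjusted p under 0.05, and the groups lay apart in 4.36%, with deficient higher in 2.26%. Areg was one of 39 such genes among the 1828 with a mean of at least 100 CPM, and 8 of those 39 had a larger fitted fold. Among 675 genes of similar level (mean within 1.5-fold), 17 (2.52%) separated the groups in the same direction. The coefficient of variation of Areg was 21.5% in deficient and 51.6% in sufficient ILC3s, where those genes had medians of 34.2% and 29.5%. DESeq2 gave a log2 fold of 1.20 for Areg with an adjusted p of 0.332, while calling 1.44% of 16714 genes higher and 0.802% lower in deficient ILC3s. Only 11478 of those genes had an adjusted p, over which the shares were 2.09% higher and 1.17% lower, and 137 of the 374 calls were among the genes that edgeR tested.

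Areg was also higher in deficient ILC3s without the libraries that stood apart or had the highest sums of macrophage and neutrophil markers. Without sufficient replicate 1 and deficient replicate 6 the log2 fold was 0.99, and without deficient replicates 5 and 7 it was 1.23, with adjusted p of 0.440 and 0.975 in edgeR's quasi-likelihood test. The summed markers of other cell types known to make amphiregulin overlapped between the groups. The 9 ILC2 markers summed to 3.35 to 28.2 CPM in deficient and 1.45 to 55.6 CPM in sufficient libraries. Il1rl1, the interleukin 33 receptor that marks ILC2s, had at most 1.51 CPM. Klrg1 of the same list reached 27.9 CPM in deficient replicate 7 and 36.7 CPM in sufficient replicate 2. Hpgds reached 21.5 CPM in deficient replicate 6 and 17.2 CPM in sufficient replicate 3, and Il5 15.2 CPM in sufficient replicate 2. Of the 9 mast cell and basophil markers 4 were at 0 in every library, and the sum ran from 0.0626 to 78.2 CPM in deficient and from 0.548 to 42.4 CPM in sufficient libraries. Cpa3 of this list had 66.2 CPM in deficient replicate 6 and at most 3.19 CPM elsewhere. Gzmb had up to 39.1 CPM, in sufficient replicate 2. Foxp3, which marks regulatory T cells, had 0 counts in the deficient libraries and at most 0.496 CPM in sufficient ones. The 11 T cell markers summed to 116 to 288 CPM in deficient and 118 to 310 CPM in sufficient libraries. Cd4, Trbc1 and Trbc2 had the highest means of the T cell list in both groups. Cd3e had at most 0.165 CPM, but other markers of the list were present in some libraries of both groups. Cd3g reached 54.4 CPM in deficient replicate 5 and 60.9 CPM in sufficient replicate 3. In deficient replicate 5 Trac had 54.8 CPM and Cd3d 15.8 CPM, and in sufficient replicate 2 they had 22.6 and 15.4 CPM. Cd28 had 31.4 CPM in deficient replicate 5. Vim and Irf8, picked after the values were seen, were higher in every deficient library, as Areg and 2.26% of all tested genes were. The other tested stromal, endothelial and dendritic markers overlapped between the groups, apart from the deleted gene Zbtb46, which was lower. The part of other cells in the Areg values was not tested. In bulk RNA, a larger share of cells that transcribe Areg and more Areg transcripts per cell cannot be told apart.

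**Figure D2:**
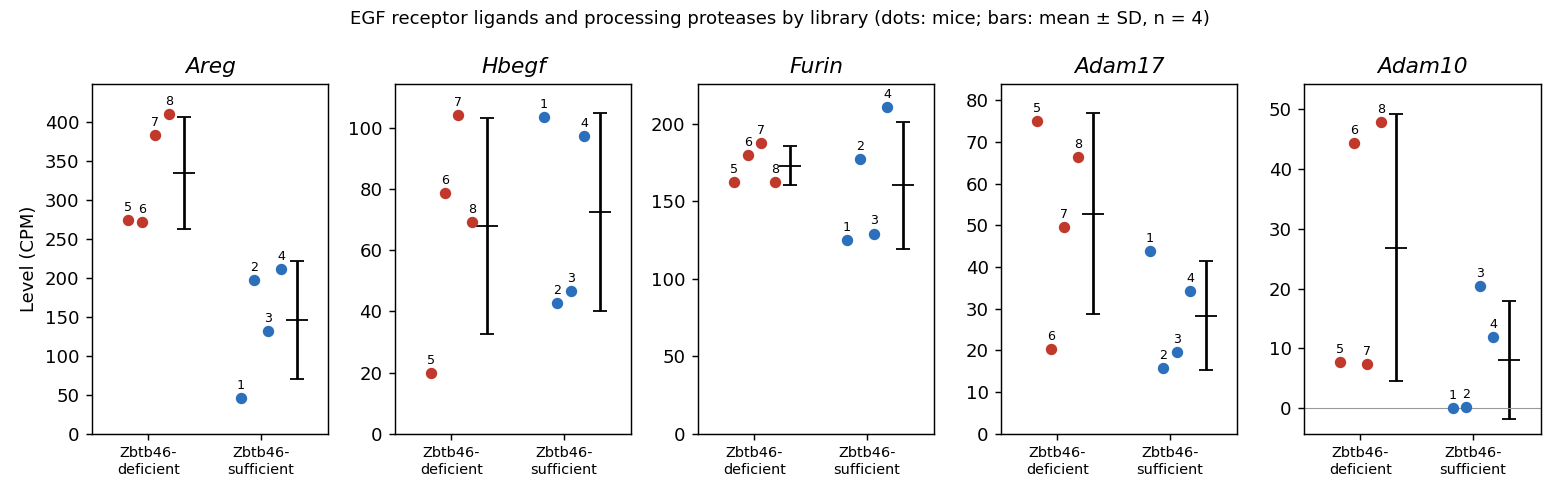
Level in CPM of the 5 genes that passed the expression filter, in each library (dots, numbered by replicate), deficient left of sufficient, with mean ± SD over n = 4 at the right of each group. Areg separates the groups, while Hbegf, Furin, Adam17 and Adam10 overlap, with the widest spread relative to the mean in Adam10.

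Hbegf, whose product binds heparan sulphate as well as the EGF receptor, was the other ligand gene present in every library and its groups overlapped. It had 19.9, 78.8, 104 and 69.3 CPM in deficient replicates 5, 6, 7 and 8, against 103, 42.9, 46.7 and 97.3 CPM in sufficient replicates 1, 2, 3 and 4. The overlap was almost complete, with the lowest value in deficient replicate 5 and values near the top in libraries of both groups. Hbegf (Entrez ID 15200, chromosome 18, 36504927 to 36515805) averaged 68.1 ± 35.3 CPM in deficient and 72.6 ± 32.3 CPM in sufficient ILC3s. Its log2 fold was -0.09 with a 95% interval of -1.38 to 1.20, so its interval reaches about the value fitted for Areg. The sign of its fitted fold turned in 5 of 15 alternative settings. Per kb of transcript, the level of Areg over that of Hbegf was 26.9, 6.75, 7.18 and 11.5 in deficient replicates 5 to 8 and 0.865, 8.98, 5.502 and 4.24 in sufficient replicates 1 to 4. The highest deficient ratio belonged to the library with the least Hbegf and the lowest sufficient ratio to the library with the least Areg, and the groups overlapped.

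The other 4 ligand genes were at or near 0 counts in nearly all libraries. Btc and Epgn had 0 counts in all 8 libraries. Tgfa had 1 count in deficient replicate 7 and 1 in sufficient replicate 3. Ereg had 1316 counts in deficient replicate 7, which is 41.2 CPM, 0 counts in the other 3 deficient libraries, and 1 count in sufficient replicate 1 with 0 in the other 3 sufficient libraries. Deficient replicate 7 is the library with the highest sum of macrophage and neutrophil markers, 757 CPM. It also had the highest stromal and endothelial sum of the deficient libraries, 1066 CPM. The part of other cells in the Ereg value was not tested. No test was made for these 4 genes in the fit over all genes, because none passed the filter on low counts. Ereg spans 91074617 to 91093649 on chromosome 5 and overlaps the noncoding gene Gm19610, as Hbegf does Gm41698 and Furin Gm44851, and the sources used here do not say if reads were counted by strand. None of the 5 further ErbB ligand genes passed the filter either. Egf, Nrg1, Nrg2, Nrg3 and Nrg4, which encode EGF and the neuregulins, each averaged less than 1 CPM in both groups, with the highest single values at 2.17 CPM for Nrg4 in deficient replicate 5 and 1.605 CPM for Nrg2 in sufficient replicate 1.

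The ILC3s had almost no transcripts of the receptors that these ligands bind. Egfr had 0 counts in the deficient and 1 count in the sufficient libraries. Erbb2, the co-receptor without a ligand of its own, had 3 counts in the deficient and 5 in the sufficient libraries, and Erbb4 had 0 counts in the deficient and 8 in the sufficient libraries. Erbb3 had 119 counts in the deficient libraries, all of them in deficient replicate 5 (3.40 CPM), and 3 counts in the sufficient ones. None of the 4 receptor genes passed the filter, so none was tested.

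Furin, which encodes the proprotein convertase that activates both ADAM proteases, varied least of the 5 tested members and overlapped between genotypes. It had 162, 180, 187 and 163 CPM in deficient replicates 5, 6, 7 and 8, against 125, 177, 129 and 211 CPM in sufficient replicates 1, 2, 3 and 4. All 4 deficient values lay inside the range of the sufficient ones. The coefficient of variation was 7.21% in deficient and 25.5% in sufficient ILC3s, where the 944 genes of similar level (mean within 1.5-fold) had medians of 36.5% and 34.6%. The means were 173 ± 12.5 CPM in deficient and 160 ± 41.0 CPM in sufficient ILC3s, and the log2 fold of Furin (chromosome 7, 80389194 to 80405441) was 0.11 with a 95% interval of -0.50 to 0.72.

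Adam17, the gene of the main amphiregulin sheddase, had higher mean values in deficient ILC3s, within the spread between libraries. It had 75.1, 20.3, 49.6 and 66.3 CPM in deficient replicates 5, 6, 7 and 8, against 43.9, 15.7, 19.6 and 34.2 CPM in sufficient replicates 1, 2, 3 and 4. Deficient replicate 6 lay among the sufficient libraries, and the other 3 deficient libraries lay above all of them. The means were 52.8 ± 24.1 CPM in deficient and 28.3 ± 13.1 CPM in sufficient ILC3s. The log2 fold of Adam17 (chromosome 12, 21323509 to 21373632) was 0.90 with a 95% interval of -0.63 to 2.42, and edgeR's unadjusted p was 0.219. Its span overlaps that of Iah1, so reads of the 2 genes may not be fully separated.

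Adam10, the other sheddase gene, was the most uneven of the protease genes. It had 7.65, 44.4, 7.41 and 47.9 CPM in deficient replicates 5, 6, 7 and 8, against 0.0391, 0.165, 20.4 and 11.8 CPM in sufficient replicates 1, 2, 3 and 4. Sufficient replicates 1 and 2 held 1 and 4 counts, the deficient libraries split into 2 high and 2 low values, and the groups overlapped. Near-absence in single libraries is common at this level: of the 1795 tested genes whose mean was within 1.5-fold of that of Adam10, 61.6% had a library with 4 counts or fewer. The means were 26.8 ± 22.3 CPM in deficient and 8.11 ± 9.88 CPM in sufficient ILC3s, and the log2 fold of Adam10 (chromosome 9, 70678944 to 70780229) was 1.73 with a 95% interval of -2.05 to 5.51. Per kb of transcript the protease levels in deficient ILC3s were 39.9 CPM for Furin, 11.8 CPM for Adam17 and 5.84 CPM for Adam10, and in sufficient ILC3s 37.0, 6.34 and 1.77 CPM. Furin was highest of the 3 in all 8 libraries, while Adam17 and Adam10 changed places in deficient replicate 6 and in sufficient replicate 3.

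**Figure D3:**
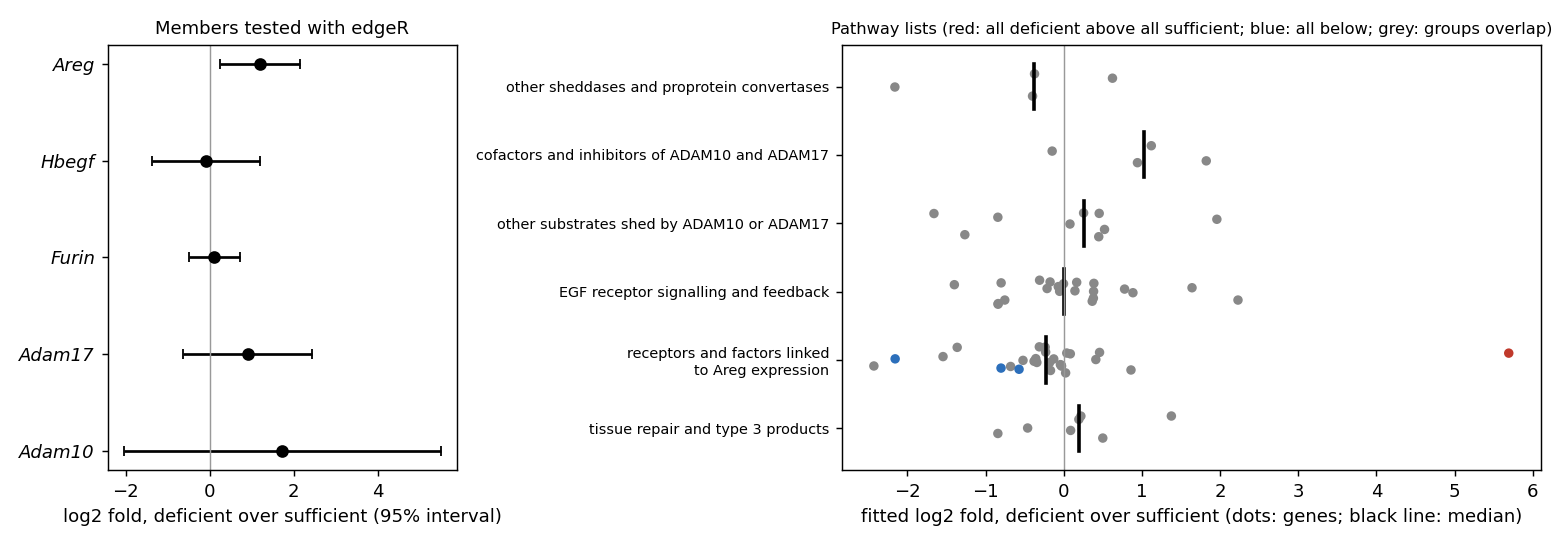
Left, fitted log2 fold with its 95% interval for the 5 tested members. Right, fitted log2 folds of the tested genes of each pathway list (dots) with the list median (black line). The interval of Areg alone among the 5 lies above 0, and the list of factors linked to Areg expression holds 3 genes with all deficient libraries lower (blue) and 1 with all higher (red).

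The machinery around the sheddases was mostly sparse, and no gene of it passed the test. Among 12 other sheddases and proprotein convertases, 4 were tested, 1 had a higher and 3 a lower fitted value, and their median log2 fold was -0.39, against 0.02 over all tested genes. The most abundant was Adam9, a membrane metalloprotease, with 123 ± 51.4 CPM in deficient and 159 ± 57.7 CPM in sufficient ILC3s. Adam12 had 49.2 ± 12.6 CPM in deficient and 64.9 ± 28.1 CPM in sufficient ILC3s, and Pcsk7, a convertase related to furin, 4.44 ± 8.28 CPM in deficient and 19.9 ± 22.9 CPM in sufficient ILC3s.

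Among 13 cofactors and inhibitors of ADAM10 and ADAM17, 4 were tested, of which 3 had higher and 1 a lower fitted value, with a median log2 fold of 1.03. The iRhom genes encode the proteins that carry ADAM17 to the cell surface. Rhbdf1 had 4 counts in the deficient and 2 in the sufficient libraries, and Rhbdf2 2.77 ± 2.302 CPM in deficient and 1.27 ± 0.901 CPM in sufficient ILC3s. Timp3, an inhibitor of ADAM17, was present in deficient replicate 7 at 15.5 CPM and in sufficient replicate 1 at 49.0 CPM, the libraries with the highest stromal marker sums of their groups, and had at most 0.152 CPM elsewhere. Timp2, the inhibitor gene with the smallest p of the list, had 47.8 ± 49.5 CPM in deficient and 13.5 ± 13.9 CPM in sufficient ILC3s with overlap. Tspan14, a tetraspanin that escorts ADAM10, had 16.0 ± 12.5 CPM in deficient and 8.33 ± 5.31 CPM in sufficient ILC3s.

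Other substrates of the same proteases and the signalling genes downstream of the EGF receptor showed no passing member. Of 14 other shed substrates 9 were tested, 6 with higher and 3 with lower fitted values and a median log2 fold of 0.25. Cd44, a hyaluronan receptor, had 356 ± 95.4 CPM in deficient and 248 ± 101 CPM in sufficient ILC3s, and the chemokine gene Cx3cl1 had 191 ± 59.9 CPM in deficient and 140 ± 29.6 CPM in sufficient ILC3s. Tnfrsf1b, encoding a receptor of tumour necrosis factor, had 165 ± 42.7 CPM in deficient and 121 ± 33.97 CPM in sufficient ILC3s, with overlap in all 3 genes. Of 25 genes of EGF receptor signalling and feedback 21 were tested, 10 with higher and 11 with lower fitted values and a median log2 fold of -0.0029. The smallest p belonged to the small GTPase gene Nras, with 121 ± 48.9 CPM in deficient and 70.4 ± 13.9 CPM in sufficient ILC3s, a log2 fold of 0.78 and an unadjusted p of 0.0741 in edgeR. Map2k2, encoding the kinase MEK2, had 8.70 ± 1.59 CPM in deficient and 23.0 ± 28.3 CPM in sufficient ILC3s. Spred1, an inhibitor of the same cascade, had 32.1 ± 41.5 CPM in deficient and 6.83 ± 8.52 CPM in sufficient ILC3s.

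Genes linked to Areg expression in lymphocytes held 4 whose groups did not overlap, again without an adjusted p under the threshold. Of the 30 listed, 27 were tested, 7 with higher and 20 with lower fitted values, and the median log2 fold was -0.23. The groups lay apart in 1 gene with deficient higher and in 3 with deficient lower, where 2.26% and 2.1% of all tested genes did so.

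Ptger2, which encodes the prostaglandin E2 receptor EP2, was the gene higher in every deficient library. It had 9.22, 46.1, 43.0 and 41.6 CPM in deficient replicates 5, 6, 7 and 8, against 0, 0.0827, 2.56 and 0.0393 CPM in sufficient replicates 1, 2, 3 and 4. EdgeR gave it an unadjusted p of 0.0163 and an adjusted p of 0.983. Crem, a modulator of transcription at cyclic AMP response elements, was among the 3 lower ones, with 4609 ± 1018 CPM in deficient and 8038 ± 1036 CPM in sufficient ILC3s. Its log2 fold was -0.80 (standard error 0.207), with an unadjusted p of 0.0030 and an adjusted p of 0.515 in edgeR. The AP-1 subunit gene Fos had 326 ± 59.2 CPM in deficient and 485 ± 50.1 CPM in sufficient ILC3s. Zfp36, which encodes tristetraprolin, a protein that promotes the decay of mRNAs with AU-rich elements, had 5.85, 0.949, 23.3 and 14.4 CPM in deficient replicates 5 to 8, against 101, 30.4, 25.9 and 41.3 CPM in sufficient replicates 1 to 4. Its highest deficient value was just under its lowest sufficient one, and its unadjusted p in edgeR was 0.0653. Egr1, an immediate early factor chosen after its values were seen, had 25.7 ± 9.41 CPM in deficient and 74.9 ± 41.4 CPM in sufficient ILC3s with overlap. Il18r1, a receptor subunit for interleukin 18, had 157 ± 53.1 CPM in deficient and 199 ± 40.6 CPM in sufficient ILC3s, and Gata3, a factor of ILC identity, had 32.99 ± 27.9 CPM in deficient and 38.7 ± 16.0 CPM in sufficient ILC3s.

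Among 12 tissue repair and type 3 products, 7 were tested, 5 with higher and 2 with lower fitted values, none passing. Il22, the main product of these cells, had the smallest p of the list, with 15419 ± 2502 CPM in deficient and 21238 ± 4647 CPM in sufficient ILC3s, the opposite order of means to Areg. Il17f had 2796 ± 983 CPM in deficient and 1978 ± 766 CPM in sufficient ILC3s, and Il17a had 27.7 ± 23.5 CPM in deficient and 10.7 ± 11.3 CPM in sufficient ILC3s. The groups overlapped in all 3.

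**Figure D4:**
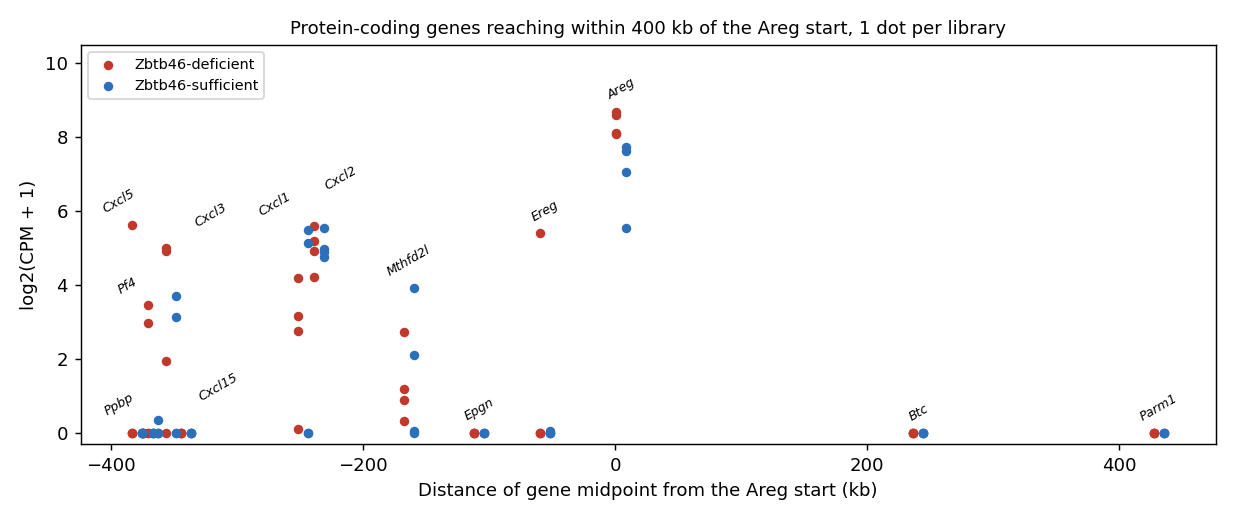
Levels as log2(CPM + 1) of the protein-coding genes that reach within 400 kb of the Areg start, placed by the distance of their midpoints from it, with 1 dot per library. Areg is the highest of them in all 8 libraries, with Cxcl2 next to it in sufficient replicate 1, and Epgn, Btc and Parm1 lie at 0.

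No other tested gene around Areg separated the groups as Areg did. Of 13 protein-coding genes that reach within 400 kb of the Areg start, 5 were tested, and the other 4 of them overlapped between groups. Cxcl2, a neutrophil-attracting chemokine, was present in all libraries with 35.4, 29.5, 47.9 and 17.7 CPM in deficient replicates 5 to 8, against 45.7, 26.2, 30.3 and 29.0 CPM in sufficient replicates 1 to 4. Its log2 fold was -0.0083 (standard error 0.687). Cxcl1, of the same family, had a log2 fold of -1.32 (standard error 2.26), and the folate enzyme gene Mthfd2l one of -1.12 (standard error 1.94). The fold of Cxcl3 was 1.67 on the log2 scale (standard error 2.42). The intervals of these 4 genes, the narrowest -1.54 to 1.52 for Cxcl2, all include the value of 1.19 fitted for Areg. The folds therefore cannot show whether these genes changed as Areg did. Cxcl5 had 48.3 CPM in deficient replicate 7 and 0 counts in the other 7 libraries, so it was seen in the same single library as Ereg. Parm1, beyond Btc, had 0 CPM in all 8 libraries, as Epgn and Btc did.

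By Pearson's r of log2(CPM + 1) over the 8 libraries, the 5 genes most like Areg among 3103 candidates with a mean of at least 50 CPM were Hacd3, Cbfb, Trappc4, Atraid and Rbx1. Their r values with Areg were 0.946, 0.940, 0.936, 0.926 and 0.921, given as a ranking, and the genes were picked for them. Hacd3, which acts in the elongation of very long chain fatty acids, had 397, 568, 454 and 479 CPM in deficient replicates 5 to 8, against 85.0, 209, 195 and 297 CPM in sufficient replicates 1 to 4. Cbfb, the partner subunit of RUNX transcription factors, had 120 ± 27.8 CPM in deficient and 53.8 ± 40.2 CPM in sufficient ILC3s with overlap. In all 5, sufficient replicate 1 was the lowest library, as in Areg. None of the 5 most like Hbegf (Bmi1, Ndufa6, Rbm27, Frmd4b and Csrnp1) and none of those most like Furin (Sec24d, Ece1, Snx14, Ptbp3 and Rnf6) was on the list for Areg. Lists of 5 from 3103 candidates seldom share a gene, so this does not measure how alike the members are. The r of Areg itself was 0.698 with Furin and -0.166 with Hbegf.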

How the data were processed

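Per the labels' protocols, cDNA came from a kit for very small RNA inputs. CASAVA 1.8.2, STAR 2.3.0 and mm10 are named in the submitters' processing notes. The sources used here do not name the counter, its annotation or its use of strand. The authors deposited whole-number read counts per Entrez gene, without normalization. Of 27179 rows, 25275 were matched to a symbol through RefSeq's GRCm38.p6 table, and the other 1904 held 0.303% of counts.

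Groups were read from the sample titles. The 9 members, the lists and the rule for named genes (all members, Zbtb46, up to 3 genes of smallest p in each pathway list, 12 fixed pathway genes, and the 5 genes most like Areg) were chosen with earlier results of these data known. The test was edgeR 4.0.16's quasi-likelihood F test (R 4.3.3) with TMM factors, filterByExpr and Benjamini-Hochberg adjustment over 8878 genes. Standard errors and 95% intervals come from its F statistic. CPM values use TMM-scaled sums over the tested genes. Levels per kb use GENCODE's (release M21) longest coding transcript. The steps were run on simulated negative binomial counts, which were not set to copy the near-absence of genes in single libraries. Alternatives were other scaling, filters, DESeq2 1.42.0, limma 3.58.1 (voom) and libraries left out. P-values measure the spread between mice and library preparations together. Without molecular identifiers, intervals from counts cover counting error only. One transcript and the name of the Cre driver are not reported here.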

Additional observations from a re-analysis of the deposited data

Results flagged for a closer look

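Of 127 groups of 4 values examined, 22 had 1 library whose gap to the nearest other exceeded Dixon's 95% critical value. For normally distributed values chance gives about 1 in 20 (6.4). A group with 0 in all but 1 library exceeds the critical value whatever its count, so the 22 cannot be judged against the 6.4. Among the members only Ereg was so marked, with 41.2 CPM in deficient replicate 7 and 0 in the other 3. In the same library Cxcl5 had 48.3 CPM, the convertase gene Pcsk6 23.9 CPM and Timp3 15.5 CPM, each against 0.152 CPM or less in the other deficient libraries. Deficient replicate 5 was highest in Erbb3 (3.40 CPM), Nrg4 (2.17 CPM), Pcsk7 (16.8 CPM) and Il1rl1 (1.51 CPM) and lowest in Ptger2 (9.22 CPM). Deficient replicate 6 was highest in Rhbdf1 (0.152 CPM) and deficient replicate 8 in Frmd8 (31.4 CPM), a partner of the iRhoms. Sufficient replicate 1 was highest in summed stromal and endothelial markers (1347 CPM), Timp3 (49.0 CPM), Cx3cl1 (184 CPM), Nrg2 (1.605 CPM) and Egf (1.21 CPM) and lowest in Atraid (62.8 CPM). Sufficient replicate 2 was highest in summed epithelial markers (1397 CPM), Bace2 (36.7 CPM) and Nrg4 (1.45 CPM). Sufficient replicate 3 was highest in Ptger2 (2.56 CPM) and sufficient replicate 4 in Pf4 (0.275 CPM).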

How the results depend on the processing

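Of the 15 alternatives, all kept a positive log2 fold for Areg, from 0.89 without sufficient replicate 1 to 1.42 without sufficient replicate 4, with adjusted p of 0.332 to 1.00, and Areg was called by none. Adam17 (0.62 to 1.46) and Adam10 (0.96 to 3.40) also kept their direction in all 15 without a call. Hbegf turned sign with 1 library left out (range -0.37 to 0.21 over the 8, with 0.21 without deficient replicate 5, 0.12 without sufficient replicate 1 and 0.08 without sufficient replicate 4), to 0.055 without replicates 1 and 6 and to 0.029 without replicates 5 and 7. Furin turned to -0.0077 without replicates 1 and 6. Over all genes, the 0 higher and 0 lower calls became 1 and 1 with no filter and 240 and 134 with DESeq2, which tested 16714 genes, and the lower calls ranged from 0 to 2 with 1 library left out (2 without deficient replicate 6). The cause was not tested. Without a filter, edgeR gave Ereg, seen in 1 library, an adjusted p of 0.431, and DESeq2 gave it no p. No paired analysis was possible because the replicate numbers 1 to 8 are not shared between the groups. At these depths a member with 0 counts may reach 0.118 CPM in the shallowest library.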

Other observations

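Ereg belonged to a small set of genes seen in 1 library, counted after its values were seen as genes with at least 1000 counts in 1 library and at most 1 count in each of the other 7. Deficient replicate 7 had 5 such genes, which besides Ereg were the chemokine genes Cxcl5 and Ccl21a, the matrix protease gene Adamts1 and the chromatin assembly gene Chaf1a. Deficient replicates 5, 6 and 8 had 2, 1 and 2. Sufficient replicate 2 had 22, among them the epithelial antimicrobial gene Reg3g, sufficient replicate 1 had 7, among them the stromal gene Igfbp6, and sufficient replicates 3 and 4 had 1 each.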
